A study of Rattus norvegicus with 7 samples.

Results

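The splicing factor genes of the rat lens are described here in 4 families: Srsf (the SR proteins), Hnrnp (heterogeneous nuclear ribonucleoproteins), Snrp (core and specific proteins of the small nuclear ribonucleoproteins, snRNPs) and Sf3a with Sf3b (the proteins that join the U2 snRNP at the branch point). Members were chosen by gene symbol alone, as every probe whose symbol in the array's annotation starts with one of these names, with the probe of the highest mean over the 7 arrays kept for each gene. In all, 55 probes matched, 2 of which carry several genes and are not described, and the other 53 stand for 51 genes. Of these, 41 had a log2 signal above 5 in at least 1 array, the limit that the study itself used for an expressed gene, and they make up 41 of the 5031 genes measured above that limit. By family they are 8 Srsf, 17 Hnrnp, 8 Snrp and 8 Sf3a or Sf3b genes. The 10 others stayed at 5 or below in every array: Srsf7, Srsf9, Srsf12, Hnrnpll, Snrpa, Snrpf, Snrpgl2 and 3 pseudogenes. Of the 41 genes, 24 were above 5 in all 7 arrays. A further 6 passed through 1 group only, 5 of them through Galactose (Hnrnpa1, Snrpb, Snrpd1, Srsf3 and Srsf10) and Snrpepl2 through Control, so the limit itself favours genes that are high in one group, and the medians below describe the genes that passed and not all splicing factor genes.

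Most rat genes are transcribed with introns, which the spliceosome removes. It is built on the pre-mRNA from snRNPs, most of them a small RNA on a ring of Sm proteins, and the SF3a and SF3b complexes hold the U2 snRNP at the branch point. SR proteins mostly bind exonic enhancers and promote the use of nearby splice sites, while many hnRNPs bind silencers or cover long stretches of the nascent transcript and compete with them. Lens epithelial cells carry this machinery, whereas maturing fibre cells lose their nuclei and with them transcription and splicing.

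The samples were lenses of 6-week-old male Sprague Dawley rats, kept in culture and measured on 1 array each. Glutamate lenses (2 arrays) stayed for 6 days in medium with 30 mM galactose and received 20 mM glutamate for the last 3 days. Galactose lenses (3 arrays) had the same medium and time without glutamate, and Control lenses (2 arrays) had no galactose and were kept for 4 days (Control Day 4) or 6 days (Control Day 6). Galactose clouds the lens in culture, and the study asked which genes follow this opacity and its decrease after glutamate. Nothing used here states that the arrays of a group came from separate animals, so the tests measure the spread between these arrays, which may be technical in part, and the Control group differs within itself in culture time. Values are log2 signals, so a difference of 1 is a 2-fold change, and signals are compared between arrays for the same gene only. Each difference below comes from a limma fit over 5320 probes with a spread shared by all 7 arrays, with p adjusted by the Benjamini-Hochberg method over those probes and a threshold of 0.05.

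The lens identity of the samples was clear, with all 8 measured fibre markers and all 8 epithelial markers above 5, against 0 of 6 for retina, 0 of 7 for ciliary body and iris, 1 of 6 for leukocytes (Cd68) and 0 of 1 for vessels and erythrocytes. The median log2 signal of the 8 epithelial markers was 6.02 and 6.53 in Glutamate, between 5.17 and 5.82 in Galactose, and 6.32 and 7.11 in Control, and their summed linear signal ranged over 642 to 845, 398 to 933 and 976 to 1130 in these groups. The epithelial markers were thus lower in the Galactose arrays by their median, and their part in the results below was not tested. In whole lenses, fewer cells of a type and less RNA per cell cannot be told apart. The Control arrays lay far from each other, with 28.6% of the 5320 probes at least 2-fold apart and a median of -0.40 for Control Day 6 minus Control Day 4, against 0.658% to 6.02% at least 2-fold apart for pairs of arrays in the other groups.

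No splicing factor gene passed the adjusted threshold in any of the 3 comparisons. For Galactose minus Control, 0 of the 41 genes were called against 0.094% of all probes (5 probes), and for Glutamate minus Galactose and Glutamate minus Control 0 were called, where the share over all probes was also 0%. The smallest adjusted p among the 41 was 0.149 for Hnrnpc in Galactose minus Control, 0.625 for Srsf3 in Glutamate minus Galactose and 0.721 for Sf3b5 in Glutamate minus Control. The values below are therefore differences between group means that the replicate spread does not separate after adjustment over all probes.

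In Galactose minus Control, the Galactose mean was the higher one for most of the genes. The median difference over the 41 genes was 0.41, beside 0.17 over all probes, and 35 of the 41 (85.4%) had a higher mean, beside 62% of all probes. With Control Day 6 as the only Control array the median was 0.38, beside 0.32 over all probes, and with Control Day 4 as the only one 0.34, beside -0.02. With all 51 matching genes at any level the median was 0.33. By family the medians were 0.62 for Sf3a and Sf3b, 0.40 for Snrp, 0.35 for Srsf and 0.15 for Hnrnp. A second quantile normalization, which lowers the median of all probes to 0.00, gave 0.45, 0.33, 0.23 and -0.11 in the same order, so that the Hnrnp family turned sign with the scaling and the other 3 did not. Before adjustment, with p under 0.05, there were 10 higher genes among the 41 (24.4%), beside 11.8% of all probes, and 0 lower ones, beside 5.23%. The 10 were Srsf2, Srsf3, Hnrnpa1, Hnrnpc, Hnrnpm, Hnrnpr, Sf3a3, Sf3b1, Sf3b2 and Sf3b5, so that none belonged to the Snrp family. Among them, Srsf3 and Hnrnpa1 were above 5 in Galactose only, and Sf3b5 in Galactose and Glutamate but not in Control. These genes thus passed the limit only through groups where they were high. After the second quantile normalization 5 were higher and 1 was lower, and without Galactose 2 or without Galactose 3 there were 6 higher in each case. Shares of all probes were not counted under these settings, so these counts cannot be set against 11.8% and 5.23%. Every Galactose array lay above both Control arrays for 16 of the 41 genes (39%), beside 21.5% of all probes, and below both for 1 gene, Srsf4, beside 12.1%. Only Srsf2 had a group mean at least 2-fold higher in Galactose, which held for 9.19% of all probes.

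**Figure D1:**
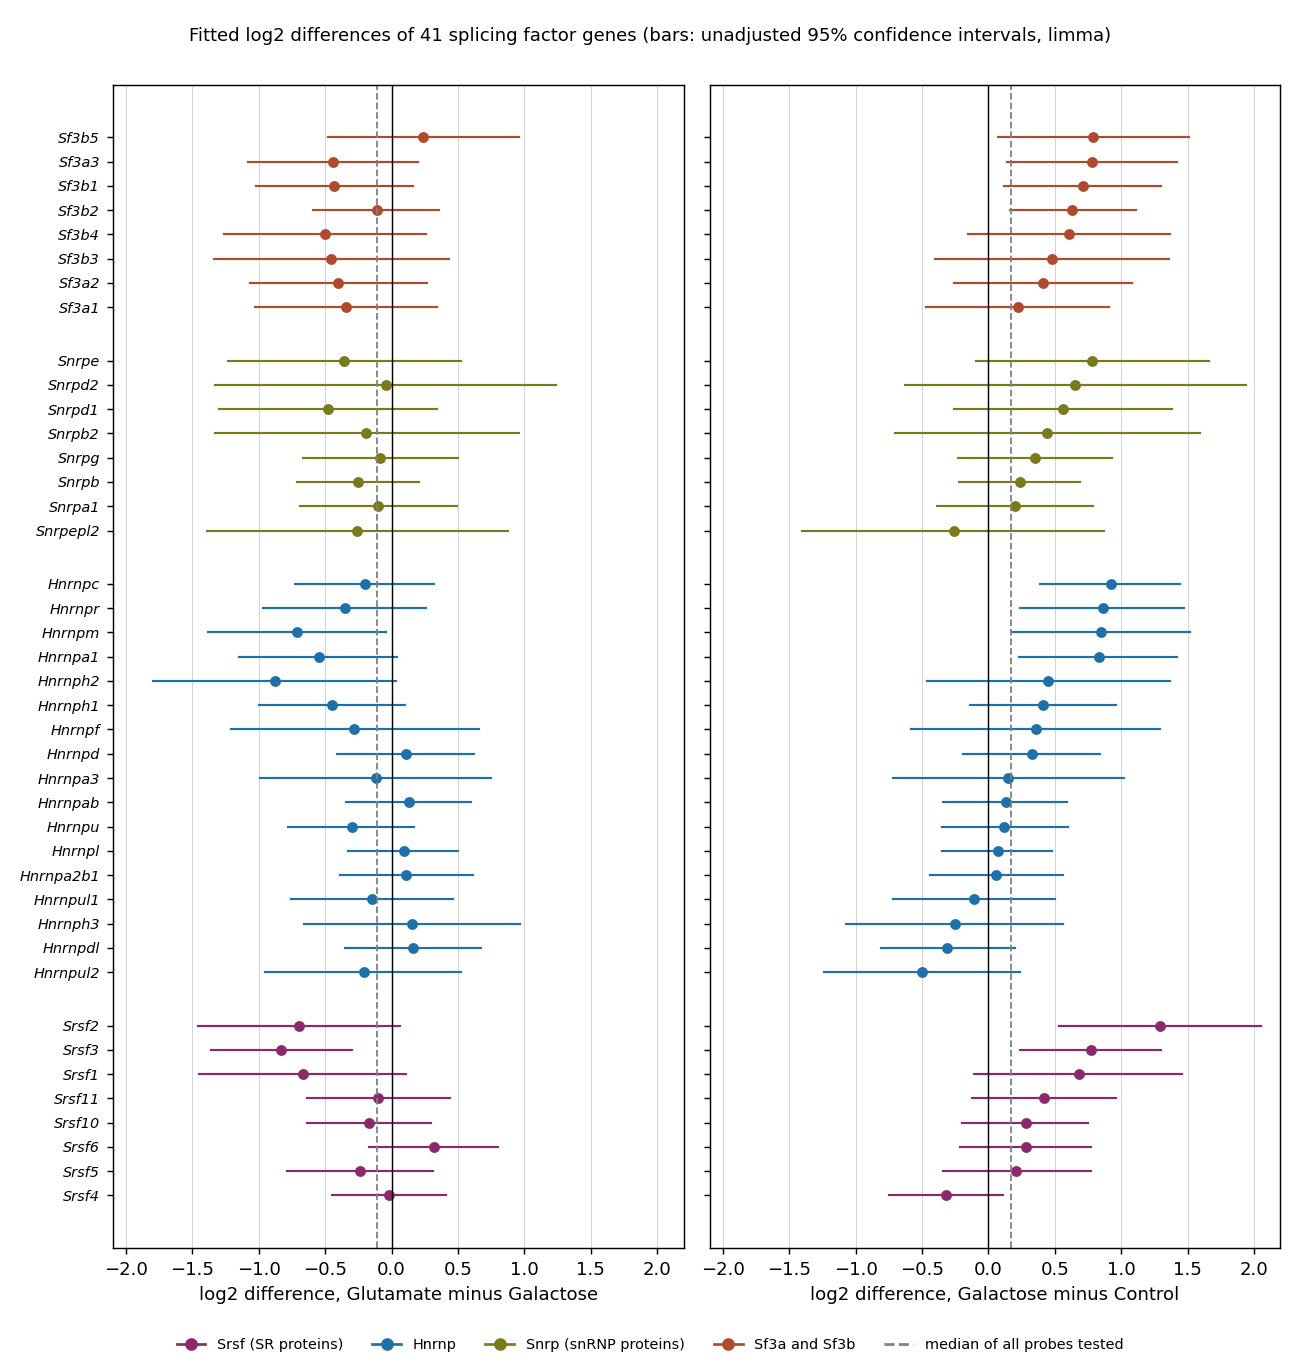
Fitted log2 differences of the 41 genes, Glutamate minus Galactose on the left and Galactose minus Control on the right, with unadjusted 95% confidence intervals and colours for the 4 families; the dashed line is the median of all probes tested (-0.11 and 0.17). In the right panel 35 of the 41 points lie above 0, and in the left panel 33 lie below 0; the 2 panels share the Galactose arrays.

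In Glutamate minus Galactose, 33 of the 41 genes had a lower mean in Glutamate and 8 (19.5%) a higher one, beside 35.4% higher over all probes. The median difference was -0.24 over the 41 genes, beside -0.11 over all probes, and -0.17 over all 51 matching genes at any level. Over the 41 genes it was -0.39 without Glutamate 2 and -0.12 without Glutamate 1. The family medians were -0.41 for Sf3a and Sf3b, -0.22 for Snrp, -0.21 for Srsf and -0.20 for Hnrnp, and after the second quantile normalization they were -0.28, -0.10, -0.08 and -0.00. Before adjustment, with p under 0.05, 0 genes were higher, beside 1.13% of all probes, and 2 of the 41 (4.88%) were lower, Srsf3 and Hnrnpm, beside 4.4%. Leaving out 1 array gave 1 lower gene without Galactose 2 or Galactose 3 and 6 without Galactose 1. The number also changed in some fits that left a single array in a group. Array weights gave 10 lower genes. Shares of all probes were not counted under these settings, so these counts cannot be set against 4.4%. Both Glutamate arrays lay below every Galactose array for 9 genes (22%), beside 21.7% of all probes, and above for 3 (Srsf6, Hnrnpdl and Hnrnpl), beside 7.76%, so both shares were close to those of all probes. A group mean at least 1.5-fold lower in Glutamate was found for Srsf1, Srsf2, Srsf3, Hnrnph2 and Hnrnpm (12.2%), beside 10.1% of all probes. Srsf3, in each of these counts of lower genes, and Hnrnpa1, among the 9, were above 5 in Galactose only. Both thus passed the limit through the group where they were high. This comparison and the one before it use the same Galactose arrays, so a high Galactose array enters both with opposite signs.

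In Glutamate minus Control the median difference was 0.11, beside 0.06 over all probes. By the same unadjusted p, 4 of the 41 genes (9.76%) were higher, Srsf6, Hnrnpc, Sf3b2 and Sf3b5, beside 2.93% of all probes, and 0 were lower, beside 3.68%. Of the 4, Sf3b5 was above 5 in no Control array, so it passed the limit only through groups where it was high. The number higher was 2 without Galactose 3, and it also changed in fits that left a single array in Glutamate or Control. Shares of all probes were not counted in those fits, so their counts cannot be set against 2.93%. Both Glutamate arrays were above both Control arrays for 11 genes, beside 13.3% of all probes, and below for 2 genes, Srsf4 and Hnrnpul2, beside 15%.

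One array changed the calls. Without Control Day 4, which leaves the Control of the same culture time as the other groups, 12 of the 41 genes passed an adjusted p of 0.05 in Galactose minus Control. Of these, 11 were higher in Galactose: Srsf2, Srsf3, Srsf11, Hnrnpa1, Hnrnpc, Hnrnpr, Sf3a3, Snrpb2, Snrpd2, Snrpe and Snrpg. The one that was lower was Hnrnpul2. In that fit 32.3% of all probes passed, so the share of the splicing factor genes (29.3%) was close to that of all probes, and it rests on a single Control array whose spread is assumed to be that of the other groups. In Glutamate minus Control without Control Day 4, Snrpd2 (higher) and Hnrnpul2 (lower) passed, 2 of 41 (4.88%) beside 16.5% of all probes. Without Control Day 6 none of the 41 passed in either comparison, beside 0.113% and 0.0376% of all probes. With each Control array alone as the comparison, 26 of the 41 genes had a higher Galactose mean against both, 3 a lower one against both, and 10 changed sign, while the other 2 had a difference against one of them that rounds to 0.00. By family, 7 of 8 Srsf, 9 of 17 Hnrnp, 3 of 8 Snrp and 7 of 8 Sf3a or Sf3b genes were higher against both. These counts were not made over all probes, so whether they are unusual cannot be told.

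**Figure D2:**
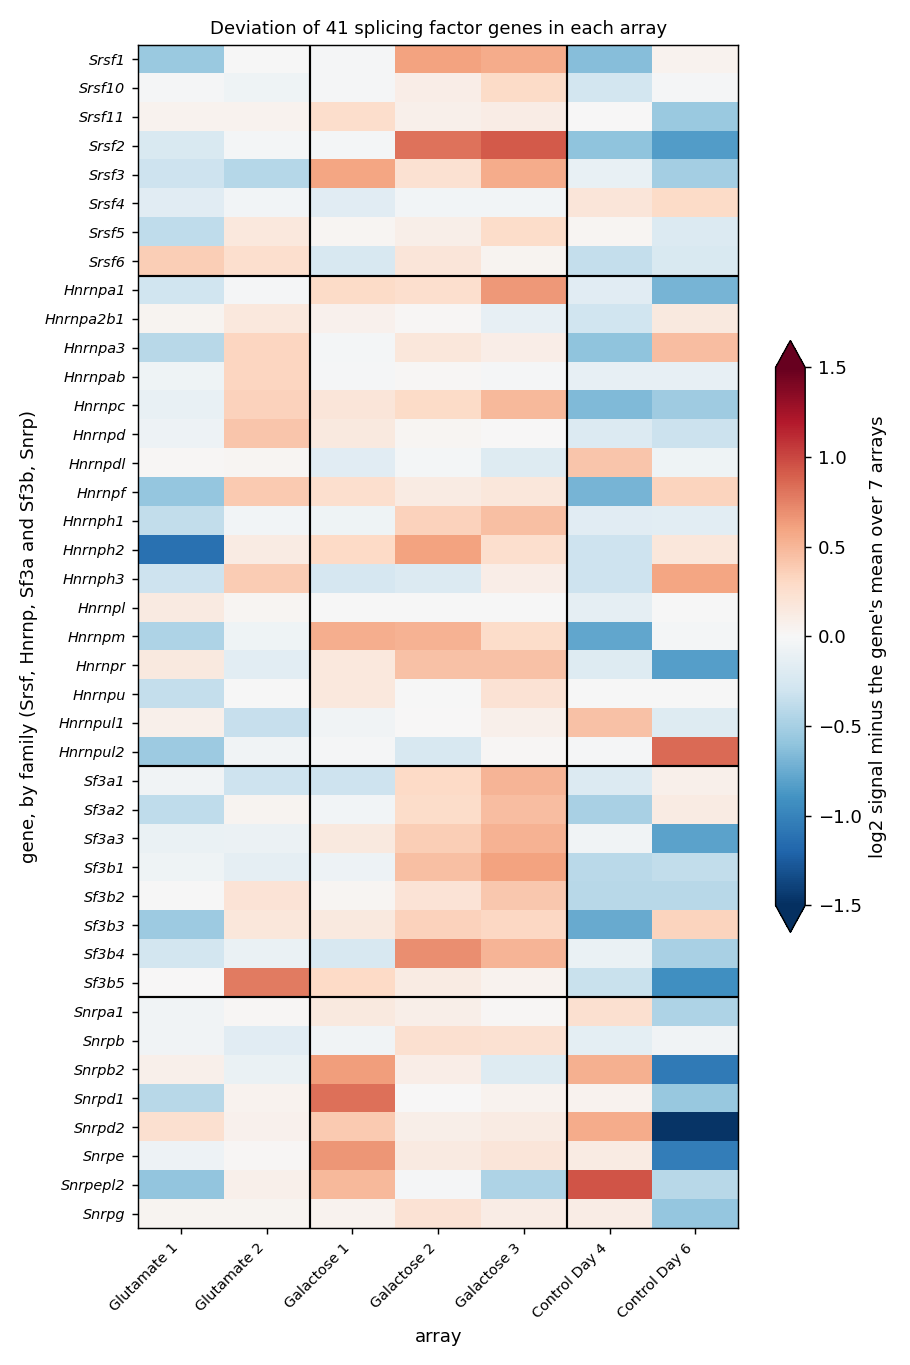
Log2 signal minus the gene's mean over the 7 arrays, for 41 splicing factor genes (rows, by family) and 7 arrays (columns: Glutamate, Galactose, Control). The warm cells of the Srsf, Sf3a and Sf3b genes gather in Galactose 2 and Galactose 3, and the dark blue cells of the Snrp family in Control Day 6.

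With both Control arrays in the fit, the largest difference of the 41 genes was that of an Srsf gene, whereas Snrpd2 (1.66) exceeded it without Control Day 4 and Hnrnpm (1.23) without Control Day 6. Srsf2 (also called SC35), a classical SR protein that binds exonic enhancers and marks nuclear speckles, had log2 signals of 6.35 and 6.55 in Glutamate, 6.55, 7.40 and 7.50 in Galactose, and 5.98 in Control Day 4 and 5.74 in Control Day 6. Every Galactose and every Glutamate array was above both Control arrays, Galactose 1 and Glutamate 2 had the same rounded value, and Galactose 2 and 3 stood above all others. The difference was 1.29 ± 0.32 (SE; 2.44-fold) for Galactose minus Control (limma, adjusted p = 0.152), -0.70 ± 0.32 for Glutamate minus Galactose (adjusted p = 0.894) and 0.59 ± 0.35 for Glutamate minus Control (adjusted p = 0.750). Srsf2 is also on a list that the study selected by fold rules on these arrays, so that list is no independent evidence of its direction. Without Control Day 4 its difference to Control was 1.41 (adjusted p = 0.0439), and without Control Day 6 it was 1.17 (adjusted p = 0.209).

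Srsf3, the shortest SR protein, which also takes part in mRNA export, had 4.76 and 4.64 in Glutamate, 5.66, 5.30 and 5.63 in Galactose, and 4.96 and 4.56 in Control Day 4 and Day 6. Its Galactose arrays stood above all 4 other arrays, and the Glutamate and Control arrays overlapped. It had a difference of 0.77 ± 0.22 in Galactose minus Control (adjusted p = 0.190), -0.83 ± 0.22 in Glutamate minus Galactose (adjusted p = 0.625) and -0.06 ± 0.24 in Glutamate minus Control (adjusted p = 0.958). Galactose minus Control came to 0.97 with Control Day 4 left out (adjusted p = 0.0241) and to 0.57 with Control Day 6 left out (adjusted p = 0.239). It was above 5 only in Galactose, so it entered the 41 through the group where it was high. Srsf1, which binds exonic enhancers and helps the U1 snRNP find the 5′ splice site, had 5.44 and 5.98 in Glutamate, 5.97, 6.60 and 6.55 in Galactose, and 5.35 and 6.05 in Control Day 4 and Day 6. Its groups overlapped through Galactose 1, and the difference for Glutamate minus Galactose was -0.67 ± 0.33 (adjusted p = 0.908).

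Srsf6 and Srsf4 had another order of the groups. Srsf6, an SR protein that regulates alternative exons, had 5.66 and 5.54 in Glutamate, 5.05, 5.47 and 5.33 in Galactose, and 4.94 and 5.06 in Control, so that both Glutamate arrays were above all other arrays. Its difference was 0.32 ± 0.20 to Galactose (adjusted p = 0.916) and 0.60 ± 0.22 to Control (adjusted p = 0.726). Srsf4, a long SR protein, had 5.77 and 5.90 in Glutamate, 5.77, 5.90 and 5.90 in Galactose, and 6.13 and 6.23 in Control. Both Control arrays were above all 5 arrays with galactose in the medium, with differences of -0.32 ± 0.18 for Galactose minus Control (adjusted p = 0.364) and -0.34 ± 0.20 for Glutamate minus Control (adjusted p = 0.746). The other Srsf genes above the limit, Srsf5, Srsf10 and Srsf11, had differences of 0.21 to 0.42 in Galactose minus Control and of -0.24 to -0.10 in Glutamate minus Galactose.

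**Figure D3:**
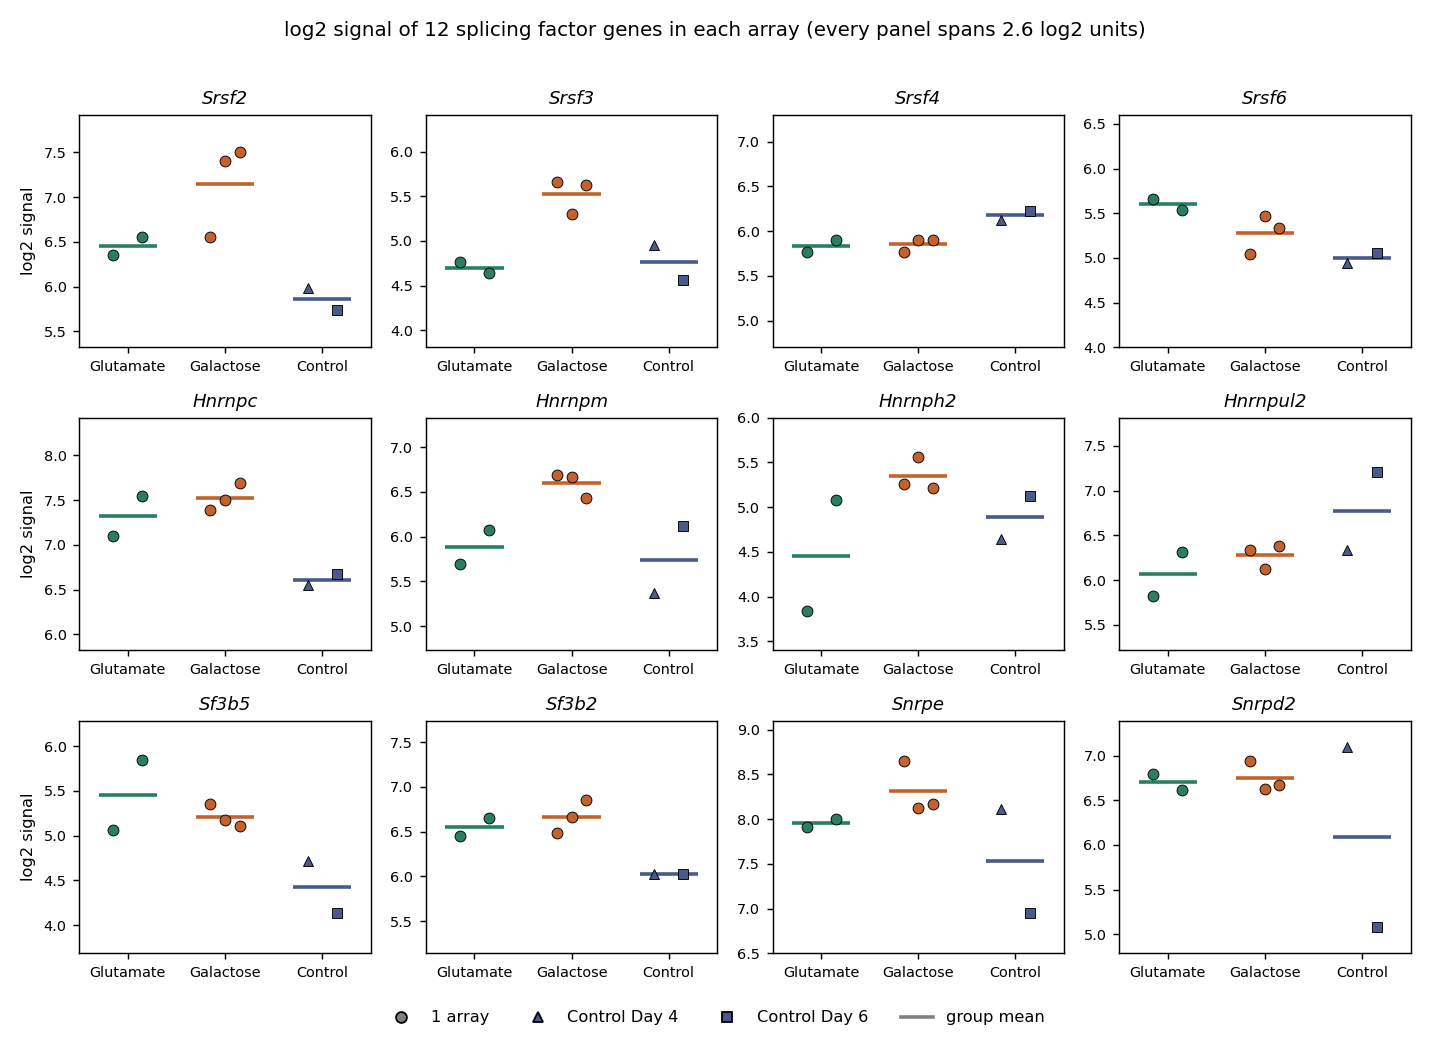
Log2 signal of 12 splicing factor genes in each array, by group (left to right: Glutamate, Galactose, Control), with a line at the group mean, a triangle for Control Day 4 and a square for Control Day 6; every panel spans the same range of log2 units. Srsf3 had 5.30 to 5.66 in Galactose and 4.56 to 4.96 elsewhere, Srsf4 was highest in Control, and Snrpd2 was low in Control Day 6 only (5.08).

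RefSeq promoter sequences (build GRCr8) were matched for 40 of the 41 genes, and the 250 bases before the annotated start are described here to show the sequence at the start of these genes. The promoters were rich in G and C, with a median of 59.8% and a range of 39.2% to 77.2%, beside 52.0% over all 27457 promoters of that table, and they held a median of 20 CG pairs, beside 6. On either strand, GGGCGG (the GC box) was found in 24 of the 40 (60%), beside 32.4% of all promoters, and CCAAT (the CCAAT box) in 20 (50%), beside 34.3%. CCGGAAG (an ETS motif) was found in 12 (30%), beside 7.74%, and TATAAA (the TATA box) in 6 (15%), beside 13.1%. TGACGTCA (the cAMP response element) was found in 1, that of Snrpg, beside 1.7% of all promoters. By family, CCAAT was found in 13 of 17 Hnrnp, 4 of 8 Srsf, 2 of 8 Snrp and 1 of 7 Sf3a or Sf3b promoters, and CCGGAAG in 2 of 17, 3 of 8, 5 of 8 and 2 of 7. These shares were not corrected for base composition, and a match is a stretch of letters and not a bound site. The promoters of Srsf2 and Srsf3, the SR protein genes with the lowest adjusted p in Galactose minus Control, and of Hnrnpc and Snrpe, examples of many CCAAT boxes and of the ETS motif, follow, 5′ to 3′ on the strand of the gene, with the letters of these motifs on either strand in capitals. The Srsf2 promoter is at chr10:102554142-102554391 (minus strand) and holds 5 GC boxes, of which 2 pairs overlap, 1 CCAAT box and 1 TATA box.
Srsf2: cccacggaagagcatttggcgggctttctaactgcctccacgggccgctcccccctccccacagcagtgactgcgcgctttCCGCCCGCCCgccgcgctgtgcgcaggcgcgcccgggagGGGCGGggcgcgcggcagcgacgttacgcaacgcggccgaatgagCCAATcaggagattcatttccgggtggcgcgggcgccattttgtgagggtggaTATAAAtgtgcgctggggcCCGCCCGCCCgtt
The Srsf3 promoter is at chr20:7093335-7093584 (plus strand) and holds 1 CCAAT box on the other strand and 1 TATA box.
Srsf3: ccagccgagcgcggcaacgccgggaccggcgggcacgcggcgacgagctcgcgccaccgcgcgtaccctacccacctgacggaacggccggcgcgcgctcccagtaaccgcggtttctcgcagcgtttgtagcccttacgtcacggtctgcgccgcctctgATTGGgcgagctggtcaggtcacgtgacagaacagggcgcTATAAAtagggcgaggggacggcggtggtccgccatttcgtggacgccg
The Hnrnpc promoter is at chr15:27282716-27282965 (minus strand) and holds 5 CCAAT boxes, the most of the 40 promoters, and 1 GC box.
Hnrnpc: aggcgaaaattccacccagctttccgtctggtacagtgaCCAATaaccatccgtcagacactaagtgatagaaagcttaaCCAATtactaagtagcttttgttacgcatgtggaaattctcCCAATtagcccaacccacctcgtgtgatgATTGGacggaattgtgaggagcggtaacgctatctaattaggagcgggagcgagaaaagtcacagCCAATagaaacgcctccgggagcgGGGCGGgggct
The Snrpe promoter is at chr13:47609252-47609501 (minus strand) and holds CCGGAAG on both strands in 1 overlapping stretch.
Snrpe: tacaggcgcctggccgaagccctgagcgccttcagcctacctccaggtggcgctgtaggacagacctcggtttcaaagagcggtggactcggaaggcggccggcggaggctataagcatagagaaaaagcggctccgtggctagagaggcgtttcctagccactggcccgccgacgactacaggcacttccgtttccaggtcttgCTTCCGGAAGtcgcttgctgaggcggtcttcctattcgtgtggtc

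The Hnrnp family was mixed, with 13 of 17 genes higher in Galactose than in Control by their means. Hnrnpc, which coats uridine tracts of nascent transcripts, had 7.10 and 7.55 in Glutamate, 7.39, 7.50 and 7.69 in Galactose, and 6.55 and 6.67 in Control Day 4 and Day 6. All 5 arrays with galactose in the medium were above both Control arrays, and the Glutamate and Galactose arrays overlapped. The difference was 0.92 ± 0.22 (1.89-fold) for Galactose minus Control (adjusted p = 0.149) and 0.72 ± 0.24 for Glutamate minus Control (adjusted p = 0.723). When Control Day 4 was left out, Galactose minus Control came to 0.86 (adjusted p = 0.0475), and when Control Day 6 was left out to 0.98 (adjusted p = 0.145).

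Hnrnpm, which binds GU-rich sequences and regulates alternative exons, had 5.69 and 6.08 in Glutamate, 6.69, 6.67 and 6.43 in Galactose, and 5.37 and 6.12 in Control. The Galactose arrays were above all others, while Glutamate and Control overlapped, with differences of 0.85 ± 0.28 for Galactose minus Control (adjusted p = 0.229) and -0.71 ± 0.28 for Glutamate minus Galactose (adjusted p = 0.853). Hnrnpr, an RNA-binding protein of the same name series with a close relative in Syncrip, had 5.66 and 5.36 in Glutamate, 5.67, 5.96 and 5.96 in Galactose, and 5.32 and 4.69 in Control. Its groups did not overlap in the order Galactose, Glutamate, Control, but only by narrow margins (5.67 against 5.66, and 5.36 against 5.32). The difference for Galactose minus Control was 0.86 ± 0.26 (limma, adjusted p = 0.203). It was 1.17 without Control Day 4 and 0.54 without Control Day 6. Hnrnpa1, which binds exonic silencers, had 4.57 and 4.85 in Glutamate, 5.16, 5.12 and 5.52 in Galactose, and 4.70 and 4.18 in Control, with a difference of 0.83 ± 0.25 for Galactose minus Control (adjusted p = 0.203). Leaving out Control Day 4 made this 1.09 (adjusted p = 0.0236), and leaving out Control Day 6 made it 0.57 (adjusted p = 0.282). Hnrnpa1 was above 5 in Galactose only.

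The genes of the H and F group, whose proteins bind runs of guanines, did not share 1 pattern. Hnrnph2 had 3.84 and 5.08 in Glutamate, 5.26, 5.56 and 5.21 in Galactose, and 4.65 and 5.13 in Control. Its Galactose arrays were highest, but the Glutamate arrays lay 1.24 apart, and the difference of -0.88 ± 0.38 for Glutamate minus Galactose (adjusted p = 0.894) was -0.26 without Glutamate 1 and -1.5 without Glutamate 2. Hnrnph3 had 8.07 and 8.76 in Glutamate, 8.13, 8.18 and 8.48 in Galactose, and 8.07 and 8.97 in Control, so that each group overlapped the others. Hnrnph1 and Hnrnpf had Galactose values of 6.97 to 7.49 and 6.03 to 6.15, against 6.87 and 6.88, and 5.21 and 6.24, in Control.

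Some Hnrnp genes had higher means in Control. Hnrnpul2, a relative of the nuclear scaffold protein Hnrnpu, had 5.82 and 6.31 in Glutamate, 6.34, 6.12 and 6.38 in Galactose, and 6.34 and 7.21 in Control Day 4 and Day 6. Only Control Day 6 stood apart. The difference was -0.50 ± 0.31 for Galactose minus Control (adjusted p = 0.397) with both Control arrays, -0.94 (adjusted p = 0.0387) without Control Day 4 and -0.06 (adjusted p = 0.944) without Control Day 6. For Glutamate minus Control it was -0.71 ± 0.34 (adjusted p = 0.730), -1.15 (adjusted p = 0.0413) without Control Day 4 and -0.27 (adjusted p = 0.713) without Control Day 6. Hnrnpdl, a paralogue of Hnrnpd, had 7.03 and 7.04 in Glutamate, 6.84, 6.98 and 6.81 in Galactose, and 7.42 and 6.94 in Control, and its difference to Control was -0.31 ± 0.21 in Galactose (adjusted p = 0.435). Hnrnpd, which binds AU-rich elements and whose gene neighbours Hnrnpdl in the genome, had 6.58 and 7.08 in Glutamate, 6.66 to 6.81 in Galactose, and 6.45 and 6.34 in Control, so the 2 paralogues had opposite orders of the Galactose and Control means. Hnrnpu had 7.14 and 7.50 in Glutamate, 7.66, 7.50 and 7.72 in Galactose, and 7.50 in both Control arrays. Several genes hardly differed between arrays, such as Hnrnpl, which binds CA repeats and had 5.83 and 5.73 in Glutamate, 5.69 in all 3 Galactose arrays, and 5.56 and 5.69 in Control.

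For each of the 8 Sf3a and Sf3b genes the Galactose mean exceeded that of Control, with differences of 0.22 to 0.79. Sf3b1, the large subunit that contacts the branch point, had 6.74 and 6.67 in Glutamate, 6.73, 7.26 and 7.41 in Galactose, and 6.41 and 6.44 in Control, so that both Control arrays were below the other 5. Its difference for Galactose minus Control was 0.71 ± 0.25 (adjusted p = 0.240). Sf3b2, its partner in the complex, had 6.45 and 6.65 in Glutamate, 6.48, 6.66 and 6.85 in Galactose, and 6.03 in both Control arrays, with 0.63 ± 0.20 for Galactose minus Control (adjusted p = 0.208) and 0.52 ± 0.22 for Glutamate minus Control (adjusted p = 0.730).

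Sf3b5, the smallest subunit described here, had 5.06 and 5.84 in Glutamate, 5.35, 5.18 and 5.11 in Galactose, and 4.72 and 4.13 in Control, where it was not above 5. It was the Sf3 gene with a higher Glutamate than Galactose mean, by 0.24 ± 0.30 (adjusted p = 0.955), which became -0.15 without Glutamate 2. Its differences to Control were 0.79 ± 0.30 in Galactose (adjusted p = 0.272) and 1.03 ± 0.33 in Glutamate (adjusted p = 0.721). Sf3a3, a subunit of SF3a, had 5.24 and 5.26 in Glutamate, 5.49, 5.71 and 5.87 in Galactose, and 5.29 and 4.54 in Control, and its Galactose arrays were above all others. The difference for Galactose minus Control was 0.78 ± 0.27 (adjusted p = 0.237), 1.15 (adjusted p = 0.0145) without Control Day 4 and 0.40 (adjusted p = 0.373) without Control Day 6.

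The remaining subunits overlapped between groups. Sf3a1 had 5.01 and 4.75 in Glutamate, 4.75, 5.36 and 5.57 in Galactose, and 4.86 and 5.14 in Control. Sf3b4 had 5.42 and 5.60 in Glutamate, 5.45, 6.39 and 6.20 in Galactose, and 5.60 and 5.21 in Control, and Sf3b3 had 4.51 and 5.23 in Glutamate, 5.20, 5.41 and 5.37 in Galactose, and 4.30 and 5.39 in Control. Glutamate minus Galactose was -0.50 ± 0.32 for Sf3b4 (adjusted p = 0.914) and -0.46 ± 0.37 for Sf3b3 (adjusted p = 0.926). Across the family, the median deviation from each gene's own mean was -0.09 and -0.02 in Glutamate, -0.01, 0.32 and 0.48 in Galactose 1, 2 and 3, and -0.37 and -0.39 in Control Day 4 and Day 6. By this median Galactose 1 was nearer to the Glutamate arrays than to the other 2 Galactose arrays. Both Control medians were low, but single genes went opposite ways between these arrays, with Sf3b3 higher and Sf3a3 lower in Control Day 6.

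The Snrp family followed the arrays more than the groups. Its median deviation was 0.18 for the Control of 4 days and -0.57 for that of 6 days, and 6 of its 8 genes were lowest in Control Day 6, as were 45.3% of all probes, whose median deviation there was -0.24. The median of Control Day 6 minus Control Day 4 was -0.94 over the 8 Snrp genes, beside -0.40 over all probes, and -0.07, 0.12 and 0.02 over the Srsf, Hnrnp and Sf3a and Sf3b genes. As the Control arrays are 1 each per culture time, time and array cannot be told apart. Among the Galactose arrays it was Galactose 1 that stood highest (0.44, against 0.09 and 0.08 in Galactose 2 and 3), the reverse of the Sf3a and Sf3b genes. With Control Day 6 alone as the comparison the family's median difference for Galactose was 0.78, and with Control Day 4 alone it was -0.08, beside 0.32 and -0.02 over all probes. In the same order the medians were 0.66 and 0.56 for Sf3a and Sf3b, 0.33 and 0.38 for Srsf, and 0.13 and 0.28 for Hnrnp.

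**Figure D4:**
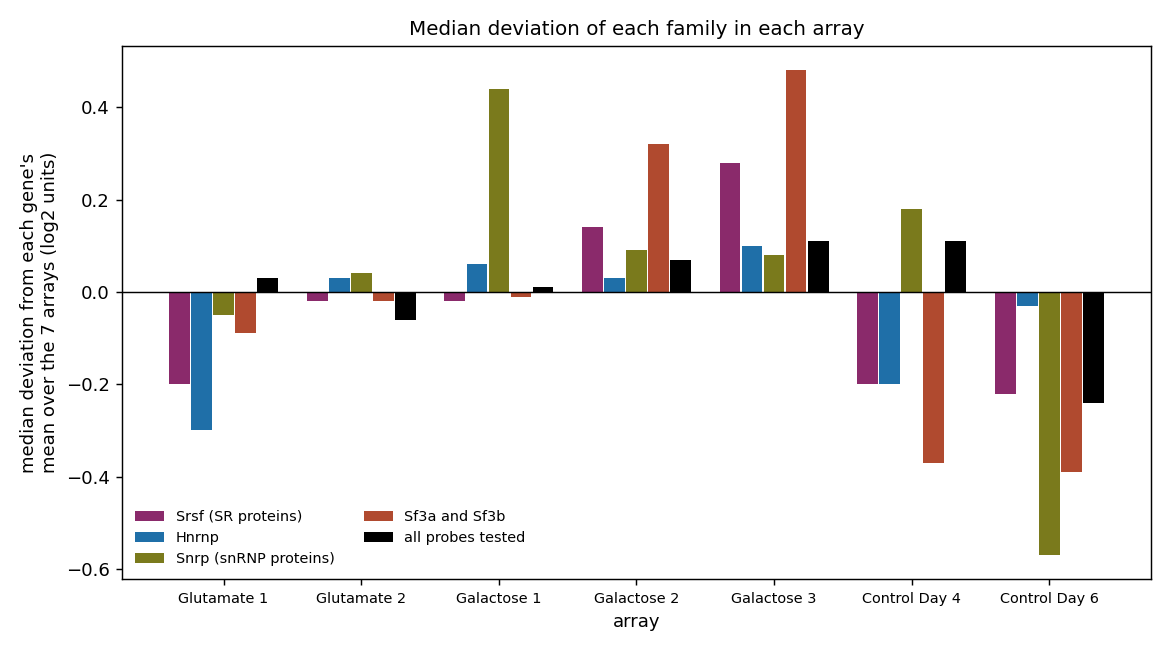
Median deviation of the genes of each family from their own means over the 7 arrays, in log2 units, for each array, beside all probes tested (black). The Sf3a and Sf3b median was low in both Control arrays (-0.37 and -0.39), and the Snrp median in Control Day 6 (-0.57) but not in Control Day 4 (0.18).

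Snrpd2, a protein of the Sm ring, had 6.79 and 6.61 in Glutamate, 6.94, 6.63 and 6.67 in Galactose, and 7.10 and 5.08 in Control Day 4 and Day 6. It was highest in one Control array and lowest in the other, 2.02 apart, so its difference for Galactose minus Control was 0.65 ± 0.54 with both (adjusted p = 0.499), 1.66 without Control Day 4 (adjusted p = 0.00665) and -0.36 without Control Day 6 (adjusted p = 0.433). For Glutamate minus Control it was 0.61 ± 0.59 (adjusted p = 0.784), 1.62 (adjusted p = 0.0163) without Control Day 4 and -0.40 (adjusted p = 0.497) without Control Day 6. Snrpe, another protein of the ring, had 7.91 and 8.0 in Glutamate, 8.65, 8.12 and 8.17 in Galactose, and 8.11 and 6.95 in Control. Galactose lay above the other groups by a narrow margin over Control Day 4, with a difference of 0.78 ± 0.37 for Galactose minus Control (adjusted p = 0.325), 1.36 (adjusted p = 0.0163) without Control Day 4 and 0.20 (adjusted p = 0.757) without Control Day 6. A second Snrpe probe, not used in the counts, gave 6.84 and 7.07 in Glutamate, 7.02 to 7.69 in Galactose, and 7.24 and 6.30 in Control, with the same lowest array. On that probe Galactose overlapped both other groups, as Galactose 2 and 3 (7.14 and 7.02) were below Control Day 4 and Galactose 3 was below Glutamate 2.

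Snrpb2, a protein of the U2 snRNP, had 4.59 and 4.41 in Glutamate, 5.14, 4.61 and 4.32 in Galactose, and 5.04 and 3.45 in Control, and its difference for Galactose minus Control was 0.44 ± 0.48 with both Control arrays (adjusted p = 0.610), 1.24 (adjusted p = 0.0388) without Control Day 4 and -0.35 (adjusted p = 0.650) without Control Day 6. Snrpd1, a further ring protein, had 4.39 and 4.85 in Glutamate, 5.63, 4.81 and 4.85 in Galactose, and 4.85 and 4.23 in Control, so that only Galactose 1 was above 5. Snrpb, also of the ring, had 4.76 and 4.65 in Glutamate, 4.76, 5.06 and 5.04 in Galactose, and 4.67 and 4.76 in Control. The groups overlapped for all 3 genes. Snrpepl2, whose symbol places it with Snrpe, had 3.55 and 4.22 in Glutamate, 4.63, 4.13 and 3.68 in Galactose, and 5.09 and 3.73 in Control, and was above 5 in Control Day 4 only. Whether its probe or that of Snrpe also takes up transcripts of the other or of the Snrpe pseudogenes was not tested.

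The spread between arrays of a group differed by group and family. The median standard deviation over the 41 genes was 0.20 in Glutamate (n = 2), 0.17 in Galactose (n = 3) and 0.37 in Control (n = 2), beside 0.19, 0.18 and 0.41 over all probes. It was 0.66 for the Snrp genes in Control and 0.18 for the Srsf genes there. Glutamate 2 had a higher value than Glutamate 1 for 29 of the 41 genes and for 14 of the 17 Hnrnp genes, where the median gap was 0.39, beside -0.09 over all probes. Among the Galactose arrays none of the 41 genes differed 2-fold between any pair, beside 0.658% to 3.4% of all probes.

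Some genes lay close to the limit of 5 on either side. Srsf10 had a highest value of 5.13, Snrpb of 5.06 and Snrpepl2 of 5.09, just inside, while Srsf9 reached 4.61, Snrpgl2 4.55 and Hnrnpll 4.44, just outside. Srsf7, outside the limit, had 3.47 and 3.49 in Glutamate, 3.63, 3.90 and 4.17 in Galactose, and 3.33 and 2.85 in Control.

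Other genes of the splicing machinery stand in 7 further lists. Over the 124 of them that were measured above the limit, the median difference was 0.24 for Galactose minus Control, -0.08 for Glutamate minus Galactose and 0.13 for Glutamate minus Control, beside 0.17, -0.11 and 0.06 over all probes, and 0 passed the adjusted threshold in any of them. With p under 0.05 before adjustment, Galactose minus Control held 22 higher (17.7%) and 4 lower genes (3.23%), beside 11.8% and 5.23% of all probes. Here too the limit of 5 favours genes that are high in a single group. Glutamate minus Galactose held 0 higher and 3 lower ones (2.42%), beside 1.13% and 4.4%, and Glutamate minus Control 7 (5.65%) and 3 (2.42%), beside 2.93% and 3.68%. By list, the medians for Galactose minus Control were 0.52 for snRNP assembly factors of the SMN complex (7 genes), 0.41 for U2 and 3′ splice site factors outside Sf3a and Sf3b (11), 0.40 for the exon junction complex (11), 0.37 for the Prp19 complex and step factors (15), 0.33 for other U snRNP and tri-snRNP proteins (22), 0.08 for other RNA-binding splicing regulators (33) and 0.02 for SR-related proteins and SR protein kinases (25).

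The single genes given here were picked from those with the smallest p of their list, so they do not describe the lists. In Galactose minus Control, Rbm3, Magoh, Prpf38a and Txnl4b (1.46 ± 0.25, limma, adjusted p = 0.0896) differed more than any member of the 4 families. The others named here did not. Rbm3, an RNA-binding protein known for its induction by cold, had 6.54 and 7.96 in Glutamate, 7.93, 7.20 and 7.39 in Galactose, and 4.53 and 4.28 in Control, with a difference of 3.11 ± 0.44 for Galactose minus Control (adjusted p = 0.0716). All 5 arrays with galactose in the medium were above both Control arrays. Magoh, a core protein of the exon junction complex, had 4.64 and 6.10 in Glutamate, 6.92, 5.83 and 5.59 in Galactose, and 3.95 and 3.29 in Control, with 2.49 ± 0.56 (adjusted p = 0.131). Prpf38a, from the list of other U snRNP and tri-snRNP proteins, had 4.77 and 4.75 in Glutamate, 5.71, 5.14 and 5.07 in Galactose, and 3.97 and 3.55 in Control, with 1.54 ± 0.26 (adjusted p = 0.0896). Its groups did not overlap in the order Galactose, Glutamate, Control. Tra2b, an SR-related protein, had 4.58 and 4.80 in Glutamate, 5.02, 5.48 and 5.23 in Galactose, and 4.23 and 4.41 in Control, also with no overlap, and Phf5a, a subunit of SF3b that the symbol rule does not take in, had 5.84 and 5.83 in Glutamate, 6.26, 6.34 and 6.04 in Galactose, and 5.75 and 4.56 in Control. Acin1, a protein of the exon junction complex, ran the other way, with 4.85 and 4.80 in Glutamate, 4.71, 4.68 and 4.72 in Galactose, and 5.10 and 5.18 in Control. Prpf38a and Tra2b were above 5 in Galactose only and Acin1 in Control only, so each entered through the group where it was high. No Control array was above 5 for Rbm3, Magoh or Txnl4b. Without Control Day 4, Rbm3 (3.23, adjusted p = 0.0139), Magoh (2.82, adjusted p = 0.0329), Prpf38a (1.75, adjusted p = 0.0115), Tra2b (0.83, adjusted p = 0.0454) and Phf5a (1.65, adjusted p = 0.00619) passed the threshold in Galactose minus Control, in the fit where 32.3% of all probes passed. With Control Day 6 left out none of these 5 passed, and Phf5a had a difference of 0.46 (adjusted p = 0.280).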

How the data were processed

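RNA of 7 rat lens cultures was hybridised to GeneChip Rat Gene 2.0 ST arrays, 1 per sample. The authors deposited 1 table of log2 signals, made with the Robust Multi-array Average method. Probes took their genes from the platform annotation (19086 of 36685 probes; 18511 with 1 gene), and 5320 with a signal above 5 in at least 1 array were tested. The table holds 0 columns of other samples.

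Differences were fitted in R 4.3.3 with limma 3.58.1 (1 mean per group, 4 residual and 2.73 prior degrees of freedom), with p adjusted over 5320 probes, and the fit was tested on simulated data. Depth has no meaning for arrays, and their number limits the precision. Figures and counts were made with Python 3.11.15, pandas 2.3.3 and matplotlib 3.10.9. Named members are, per family and comparison, the 2 largest differences in each direction, those past fold rules of 2 (Galactose minus Control) or 1.5 (Glutamate minus Galactose), the 3 highest and 3 lowest by mean signal, and Srsf2; members at an unadjusted p under 0.05 and single further genes were added after their values were seen. The members and lists were chosen with earlier results of these data known. Alternatives were other filters, scalings, variance models, probe rules and arrays.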

Additional observations from a re-analysis of the deposited data

How the results depend on the processing

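No member passed the adjusted threshold in any comparison under the 10 settings that leave out no array, and all 397 values of 45 gene differences kept their sign and their side of the threshold. Under the settings below the cause of a change was not tested, except that other filters count another number of genes. Without a filter (51 genes) the median was 0.33 for Galactose minus Control and -0.17 for Glutamate minus Galactose, and 1 gene was lower at an unadjusted p under 0.05 in Galactose minus Control and 1 in Glutamate minus Control. With a filter above 6 (22 genes) the first median was 0.34, with 5 genes higher in Galactose minus Control, 0 lower in Glutamate minus Galactose and 1 higher in Glutamate minus Control. After the second quantile normalization the medians were 0.23 and -0.09, with 5 higher and 1 lower in Galactose minus Control, 1 lower in Glutamate minus Galactose and 1 higher in Glutamate minus Control. Array weights gave 4 higher in Galactose minus Control, 10 lower in Glutamate minus Galactose and 0 higher in Glutamate minus Control, and a fit of the compared groups alone gave 4 and 0 for the last 2. The shares of all probes at an unadjusted p under 0.05, given above, were not counted again under any of these settings.

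The replicate number as a block left 0 called, a median of -0.17 and 0 lower genes in Glutamate minus Galactose. Same-numbered Glutamate and Galactose arrays correlated at -0.03 and 0.06 in their deviations from the group means. With 2 Glutamate arrays these deviations mirror each other, so the correlations cannot decide whether arrays were paired. The sample titles name no pairs, so the numbers were not taken as pairs.

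With 1 array left out, calls ranged over 0 to 12 in Galactose minus Control, 0 to 0 in Glutamate minus Galactose and 0 to 2 in Glutamate minus Control, and the only array behind the calls was Control Day 4. The medians ranged over 0.34 to 0.41, -0.39 to -0.12 and 0.03 to 0.25. Higher genes at an unadjusted p under 0.05 ranged over 6 to 14, 0 to 0 and 0 to 9, and lower ones over 0 to 1, 1 to 6 and 0 to 1. Of 315 values with 1 array left out, 289 kept sign and side, 12 passed the threshold, all without Control Day 4, and 14 turned sign. Those that turned sign had these ranges. In Galactose minus Control, Snrpd2 ranged over -0.36 to 1.66, Snrpb2 over -0.35 to 1.24 and Snrpepl2 over -0.94 to 0.42, each between leaving out Control Day 6 and Control Day 4. In Glutamate minus Galactose, Hnrnph3 ranged over -0.19 to 0.50 and Sf3b5 over -0.15 to 0.63, between leaving out Glutamate 2 and Glutamate 1. In Glutamate minus Control, the ranges were -0.16 to 1.01 for Snrpe, -0.40 to 1.62 for Snrpd2, -0.26 to 0.14 for Srsf3, -0.26 to 0.02 for Sf3a1, -1.05 to 0.19 for Hnrnph2, -0.07 to 0.05 for Snrpb and -1.20 to 0.16 for Snrpepl2. The number of arrays, 2 or 3 a group, limits what can be told apart.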
